A study of Mus musculus with 10 samples.

Results

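The MCM helicase family was measured as 9 genes, Mcm2 to Mcm10, of the 45232 gene entries in the expression matrix. The genes were taken by name as a family, with earlier results of these data known, and were matched to their Ensembl identifiers. All 9 were above the minimum level for testing among the 16866 genes tested over both clones. This level was a mean of 0.1 RPKM (reads scaled to gene length and sequencing depth) over all replicates of a comparison. The 10 libraries were made from mouse NIH3T3 fibroblasts, a cell line that stops dividing without serum. Every cell carried a mutated Lin37, a subunit of the MuvB core of the DREAM repressor complex. There were 2 clones, each grown from a single cell, which are named here by the exon at which InDels were made (exon 4 or exon 6), so that each stands for 1 edited cell. Cells held an episome with an inducible insert, which was luciferase in the KO group and wild-type Lin37 in the rescue group, and all were kept without serum for 60 h. The exon 4 clone gave 2 replicates of each group, and the exon 6 clone gave 2 replicates of each group plus a technical repeat of replicate 2, which was averaged with it. This left 4 KO and 4 rescue replicates. The labels call them biological replicates but do not say how the cultures were separated, so that p-values measure the spread between these samples.

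Mcm2 to Mcm7 encode the 6 related subunits of the ring that is loaded onto replication origins in G1 and becomes the motor of the replicative helicase. Mcm10 is not related to them in sequence and acts when the helicase is activated, while Mcm8 and Mcm9 form a separate complex that works in recombination. Transcription of the replicative subunits is low in quiescent cells and rises towards S phase, and E2F sites are known to act in several of their promoters.

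The promoters of 5 members are shown because these genes cover the range of responses described below. Sequences are from RefSeq on GRCm38.p6, written 5′ to 3′ on the strand of the gene, from 180 bases before to 30 bases after the RefSeq start. This start can differ from that of GENCODE, whose positions are given further below. The sequences shown for Mcm7 and Mcm9 lie inside the GENCODE genes, so that their word counts hold for the RefSeq start only. Capitals mark the E2F consensus in 4 forms, which are TTCCCGC and its variants TTCGCGC, then also TTGCCGC and finally TTGGCGC, with the CHR word TTTGAA and the related palindrome TTCGAA, on either strand. The last 6 capitals of Mcm6 are part of a word that runs 1 base past the sequence shown. Words on opposite strands can overlap and were then each counted.
Mcm5 (chr8:75109329-75109538, plus strand): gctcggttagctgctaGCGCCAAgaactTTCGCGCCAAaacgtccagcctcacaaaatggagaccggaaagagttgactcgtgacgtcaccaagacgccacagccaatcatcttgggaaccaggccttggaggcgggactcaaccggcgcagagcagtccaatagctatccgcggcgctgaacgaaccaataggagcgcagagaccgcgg
Mcm6 (chr1:128359676-128359885, minus strand): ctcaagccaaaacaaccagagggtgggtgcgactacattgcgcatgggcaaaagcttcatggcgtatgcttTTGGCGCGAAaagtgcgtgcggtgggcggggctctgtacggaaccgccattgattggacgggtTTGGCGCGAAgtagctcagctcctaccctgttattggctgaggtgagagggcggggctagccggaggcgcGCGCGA
Mcm7 (chr5:138171854-138172063, minus strand): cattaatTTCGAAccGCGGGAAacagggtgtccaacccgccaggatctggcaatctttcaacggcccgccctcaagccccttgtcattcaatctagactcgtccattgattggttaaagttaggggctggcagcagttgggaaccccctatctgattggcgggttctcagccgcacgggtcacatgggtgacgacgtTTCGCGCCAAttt
Mcm9 (chr10:53629928-53630137, minus strand): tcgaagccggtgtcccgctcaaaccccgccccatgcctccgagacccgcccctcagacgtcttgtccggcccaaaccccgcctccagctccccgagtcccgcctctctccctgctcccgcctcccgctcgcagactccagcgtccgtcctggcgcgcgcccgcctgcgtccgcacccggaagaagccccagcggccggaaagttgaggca
Mcm10 (chr2:5012762-5012971, minus strand): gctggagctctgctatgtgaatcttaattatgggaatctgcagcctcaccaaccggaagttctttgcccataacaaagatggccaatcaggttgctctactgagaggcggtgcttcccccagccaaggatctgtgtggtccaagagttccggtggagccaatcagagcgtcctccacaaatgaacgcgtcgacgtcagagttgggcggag

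Of the 9 members, 8 had a promoter entry, and Mcm4 had none. In the full window of 250 bases before to 50 after the start, Mcm5 held 3 E2F words between positions -164 and -143, and Mcm6 held 5. Mcm3 also held 3, all after its start, and the first of the 2 Mcm7 starts, the one shown, held 3 with a palindromic CHR word at -173 to -168, while the second start held 1. Mcm8 held 1 E2F word, and Mcm2, Mcm9 and Mcm10 held 0, although Mcm2 had a CHR word at -70 to -65. Across 32851 promoters of this length, 9.57% held at least 1 E2F word, 0.131% held at least 3, and 19.2% held a CHR word. These are matches of letters and not measured binding.

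The libraries differed widely in scale, with factors from 0.324 to 2.70, and each was therefore divided by its median ratio to the other libraries. Scale ran with genotype, with factors of 0.601 to 2.70 in KO libraries and 0.324 to 1.73 in rescue libraries. Every KO library had a larger factor than the rescue library of the same clone and number, and the cause was not tested. The few highest entries held 61.5% to 86.4% of the summed RPKM of a library. Values below are rescaled RPKM unless named otherwise. Lin37 was at 0.274 to 0.417 in the KO replicates and at 2.12 to 4.92 in the rescue replicates, as the labels say. All 8 fibroblast markers were above 0 in every library, with a summed level of 447 to 900 RPKM, while the epithelial markers summed to 0.0308 to 1.12 RPKM and the endothelial markers to 0.0108 to 0.184 RPKM. The 4 blood markers summed to 0.536 to 1.55 RPKM. The 8 proliferation markers summed to 10.4 to 12.2 in KO replicates and to 1.75 to 3.72 in rescue replicates. Of these markers, 4 were higher in KO by the test used for the members, which called 1.61% of all tested genes higher. More cells in cycle and more RNA per cell cannot be told apart in such bulk samples, and the part of the proliferation markers in the results below was not tested.

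KO replicates had higher levels of 7 of the 9 MCM genes, and both the hexamer and the other members held genes with large and with small differences. Mcm5, Mcm10 and Mcm8 differed most on the linear scale, with mean ratios of KO to rescue of 9.70, 8.61 and 5.38. The ratios of Mcm10 and Mcm8 rest on low rescue means, 0.0680 and 0.125. Mcm10 was at 0.0274 and 0.0534 in 2 libraries of 1 rescue sample of the exon 6 clone, so that its ratio is imprecise. Mcm3, Mcm6, Mcm4 and Mcm2 had ratios of 2.81, 2.25, 2.06 and 2.00. Mcm7 had a ratio of 1.40 and Mcm9 of 0.765, and neither passed the test. The test was limma on log2(rescaled RPKM + 0.5) with clone as a covariate and Benjamini-Hochberg adjustment over all genes tested, at an adjusted p of 0.05. It called 271 genes, or 1.61% of those tested, higher in KO.

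**Figure D1:**
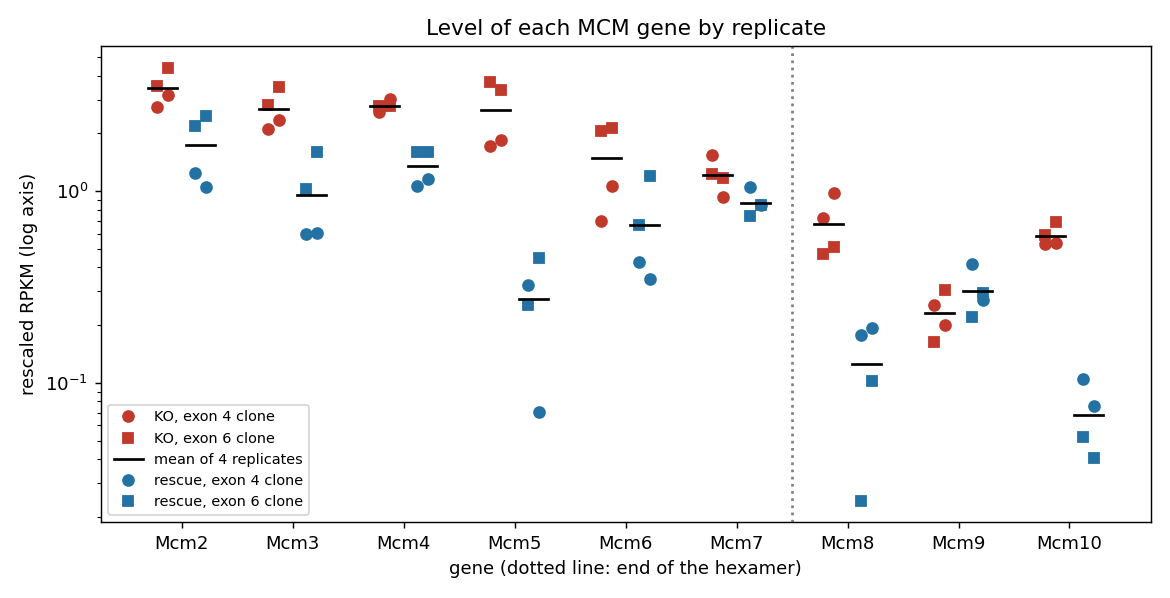
Rescaled RPKM (log axis) of each MCM gene in the 4 KO and 4 rescue replicates, with circles for the exon 4 clone, squares for the exon 6 clone and bars for the mean of each group. KO and rescue points are separate for Mcm2, Mcm3, Mcm4, Mcm5, Mcm8 and Mcm10, and overlap for Mcm6, Mcm7 and Mcm9.

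Mcm5 encodes the subunit that forms one side of the gate of the ring. Its level was 1.72 and 1.86 in the KO replicates of the exon 4 clone and 3.70 and 3.35 in those of the exon 6 clone. In rescue replicates it was 0.322 and 0.0708 in the exon 4 clone and 0.254 and 0.449 in the exon 6 clone. Every KO replicate was above every rescue replicate, a separation that 3.11% of all tested genes showed. The log2 difference was 1.99 ± 0.16 (SE, n = 4 and 4, limma adjusted p = 0.000373). The linear ratio of KO to rescue was 9.12 for the exon 4 clone and 10.0 for exon 6, where that of Mcm10 was 5.93 and 13.8, so that the order of these genes differed between the clones.

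Mcm2, the partner of Mcm5 at the gate, had the highest mean level of the members in both groups. Mcm5 was above it in KO replicate 1 of the exon 6 clone (3.70 against 3.54). Mcm4 was above it in rescue replicate 2 of the exon 4 clone (1.16 against 1.05). Mcm2 was at 2.75 and 3.17 in KO and at 1.24 and 1.05 in rescue in the exon 4 clone. In the exon 6 clone it was at 3.54 and 4.41 in KO and at 2.19 and 2.46 in rescue. The groups did not overlap, and the log2 difference was 0.86 ± 0.12 (SE, adjusted p = 0.00825). Mcm3 was at 2.12 and 2.36 against 0.596 and 0.607 in the exon 4 clone, and at 2.81 and 3.47 against 1.03 and 1.60 in the exon 6 clone, with KO first. Its log2 difference of 1.17 ± 0.13 (SE, adjusted p = 0.00213) was above those of Mcm10 and Mcm8 on this scale and below them with a pseudocount of 0.1.

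Mcm4, Mcm6 and Mcm7 together form the subcomplex of the ring that has helicase activity on its own. Mcm4 was at 2.58 to 3.01 in KO and at 1.06 to 1.60 in rescue, without overlap, and its log2 difference was 0.84 ± 0.11 (SE, adjusted p = 0.00416). Mcm6 was at 0.699 and 1.06 in KO and at 0.428 and 0.350 in rescue in the exon 4 clone. In the exon 6 clone it was at 2.07 and 2.13 in KO and at 0.667 and 1.20 in rescue. The groups overlapped over both clones but not within either. The log2 difference was 0.75 ± 0.15 (SE), and the call was narrow, with an adjusted p of 0.0439 and of 0.0498 with the replicate number as a block.

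Mcm7 was at 1.53 and 0.933 in KO and at 1.05 and 0.843 in rescue in the exon 4 clone, and at 1.22 and 1.17 in KO and at 0.743 and 0.842 in rescue in the exon 6 clone. The groups overlapped in the exon 4 clone and were separate in the exon 6 clone. The log2 difference was 0.32, with a 95% confidence interval of 0.03 to 0.61 (adjusted p = 0.481). The interval of Mcm5 was 1.63 to 2.36.

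Mcm10 was the lowest member in rescue and was at 0.532 and 0.534 in KO and at 0.104 and 0.0753 in rescue in the exon 4 clone. In the exon 6 clone it was at 0.588 and 0.689 in KO and at 0.0519 and 0.0404 in rescue. The groups were far apart, and the log2 difference was 0.93 ± 0.10 (SE, adjusted p = 0.00171). Because 0.5 was added before the log, this scale understates the change of such low genes. Mcm10, with a mean of 0.0680 in rescue and 0.586 in KO, passed the minimum level of 0.1 only through its KO replicates. Mcm8 was at 0.728 and 0.983 in KO and at 0.179 and 0.194 in rescue in the exon 4 clone, and at 0.468 and 0.513 in KO and at 0.0243 and 0.102 in rescue in the exon 6 clone. Its log2 difference was 0.90 ± 0.11 (SE, adjusted p = 0.00291).

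Mcm9, the partner of Mcm8, did not pass the test. It was at 0.255 and 0.199 in KO and at 0.418 and 0.270 in rescue in the exon 4 clone, and at 0.163 and 0.304 in KO and at 0.222 and 0.294 in rescue in the exon 6 clone. KO was higher in 1 of 4 pairs of the same clone and number, whereas each of the other 8 members was higher in all 4 pairs, as were 8.96% of all tested genes. The log2 difference was -0.13, with a 95% confidence interval of -0.40 to 0.13 (adjusted p = 0.802), and the interval of Mcm8 was 0.65 to 1.14.

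**Figure D2:**
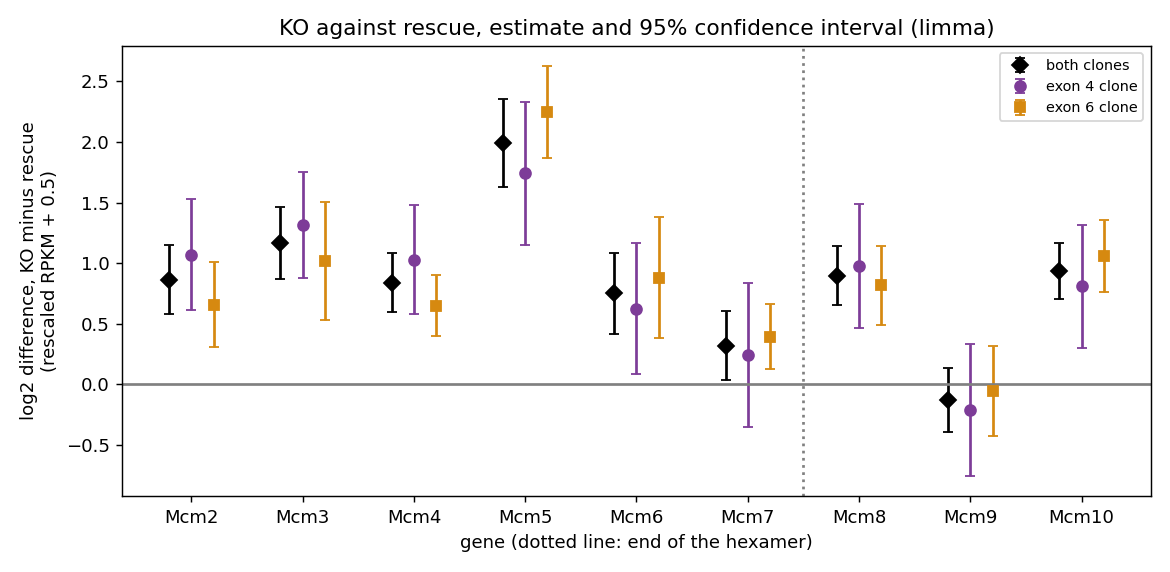
Log2 difference of KO minus rescue for each MCM gene (limma estimate and 95% confidence interval) over both clones and in each clone. Mcm5 is highest in all 3 comparisons, and the intervals of Mcm9 include 0 in all 3.

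The hexamer and the other 3 members were compared by their differences. Of Mcm2 to Mcm7, 5 of 6 were called, with a median log2 difference of 0.85 and a range of 0.32 to 1.99. Of Mcm8, Mcm9 and Mcm10, 2 of 3 were called, with a median of 0.90 and a range of -0.13 to 0.93. The median of all tested genes was -0.03, and 1.61% of them were called higher in KO. The mean of the hexamer was above that of the other 3 by 0.42, with an SD of 0.13 over the 4 pairs, and this was 0.13 with a pseudocount of 0.1. With the pseudocount of 0.5, the mean of the hexamer was the higher one in 4 of 4 pairs, by 0.24 to 0.52, and its median in 2 of them. These means include the extremes Mcm5 (1.99) in the hexamer and Mcm9 (-0.13) outside it. Mcm8 (0.90) and Mcm10 (0.93) were both above the hexamer median.

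Within KO replicates, the mean levels ran from Mcm2 (3.47 ± 0.70, SD, n = 4) through Mcm4 (2.79 ± 0.18), Mcm3 (2.69 ± 0.59) and Mcm5 (2.66 ± 1.01) to Mcm6 (1.49 ± 0.72) and Mcm7 (1.22 ± 0.25). Mcm8 (0.673 ± 0.236), Mcm10 (0.586 ± 0.074) and Mcm9 (0.230 ± 0.062) followed. Each neighbouring pair in this order overlapped between replicates except Mcm10 and Mcm9. In rescue replicates the order was Mcm2 (1.74 ± 0.69), Mcm4 (1.35 ± 0.28), Mcm3 (0.958 ± 0.473), Mcm7 (0.869 ± 0.129), Mcm6 (0.662 ± 0.386), Mcm9 (0.301 ± 0.084), Mcm5 (0.274 ± 0.158), Mcm8 (0.125 ± 0.078) and Mcm10 (0.0680 ± 0.0282). Every neighbouring pair in the rescue order overlapped. RPKM is scaled by gene length, so that these levels can be set side by side, within the limits of the gene models used for counting.

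The make-up of the hexamer transcripts was compared by the share of each subunit in their sum. The summed level of Mcm2 to Mcm7 was 14.3 ± 2.86 (SD, n = 4) in KO and 5.86 ± 1.84 in rescue. Mcm5 made up 18.1% ± 3.81 (SD) of that sum in KO replicates and 4.50% ± 2.20 in rescue replicates, without overlap. Mcm2 made up 22.0% to 25.6% in KO and 25.8% to 33.8% in rescue, which was lower in KO without overlap but by a narrow gap. Mcm4 (16.1% to 24.3% in KO and 19.6% to 28.4% in rescue), Mcm7 (6.76% to 13.5% and 10.3% to 22.3%), Mcm3 (17.4% to 20.0% and 12.7% to 19.6%) and Mcm6 (6.13% to 12.8% and 8.57% to 14.8%) overlapped between the groups. The highest hexamer member was 3.02 to 3.94 times the lowest in KO replicates and 3.86 to 16.4 times the lowest in rescue replicates. These shares follow from the levels given above and add no separate test.

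**Figure D3:**
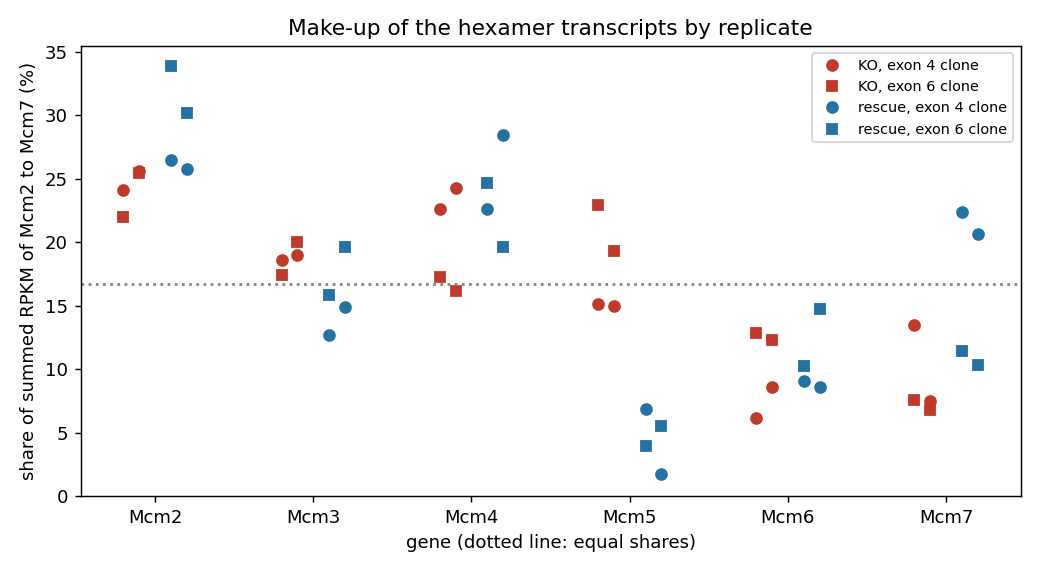
Share of the summed RPKM of Mcm2 to Mcm7 held by each subunit (percent), in the 4 KO and 4 rescue replicates, with circles for the exon 4 clone and squares for the exon 6 clone. Mcm5 lies at up to 22.9% in KO and at 1.74% to 6.85% in rescue.

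Each clone was also tested alone, with 2 replicates against 2. In the exon 6 clone, 189 of 15301 genes, or 1.24%, were higher in KO. Mcm5 (log2 difference 2.25, adjusted p = 0.0104) and Mcm10 (1.06, adjusted p = 0.0242) were among them, and Mcm10 had an adjusted p of 0.0562 with the replicate block. Mcm10 and Mcm8, with means of 0.0462 and 0.0634 in rescue, passed the minimum level here only through KO. The adjusted p was 0.0647 for Mcm4, 0.0723 for Mcm8 and 0.114 for Mcm3. When 1 replicate of this clone was left out, the log2 difference was 2.08 to 2.41 for Mcm5 and 0.99 to 1.12 for Mcm10. Such fits leave 1 sample in a group, so that their calls are not given. KO was above rescue in both replicates for all members but Mcm9 in this clone, as for 21.8% of all genes. In the exon 4 clone, limma called 0 of 18751 genes higher, or 0.0%, while 426 genes were higher and 342 lower at an unadjusted p under 0.05. The log2 differences there were 1.74 for Mcm5, 1.31 for Mcm3, 1.07 for Mcm2, 1.03 for Mcm4, 0.98 for Mcm8, 0.81 for Mcm10, 0.63 for Mcm6, 0.24 for Mcm7 and -0.21 for Mcm9. All but Mcm7 and Mcm9 had 95% intervals above 0 in this clone, and the same 7 had both KO replicates above both rescue replicates, as did 11.4% of all genes.

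The difference between the clones in the effect of KO was tested as an interaction, and limma called 0 members and 0.0% of all genes. At an unadjusted p under 0.05, 434 genes had a larger difference in the exon 6 clone and 251 a smaller one, and no member was among them. The interaction was 0.51 for Mcm5, with a 95% interval of -0.16 to 1.18, and -0.41 for Mcm2, with an interval of -0.92 to 0.09.

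The level over both groups did differ between the clones for 3 members. Mcm6 was higher in the exon 6 clone by 0.80 on the log2 scale (adjusted p = 0.0106), Mcm2 by 0.57 (adjusted p = 0.0208) and Mcm3 by 0.55 (adjusted p = 0.0280), where 6.84% of all genes were higher in that clone. Mcm5 had a difference of 0.56 (adjusted p = 0.0527) and Mcm8 one of -0.37 (adjusted p = 0.0560). The technical repeats of rescue replicate 2 of this clone also differed for these 3 genes, by 0.52 to 0.55 on the log2 scale against a median absolute difference of 0.23 over all genes, and leaving out KO or rescue replicate 2 of this clone left 1 call. Mcm6 was at 0.884 and 1.53 in these 2 libraries of 1 sample, Mcm3 at 1.23 and 1.97, and Mcm2 at 1.91 and 3.01.

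Several members share sequence or a start region with other genes, and values are given for those that the matrix lists. Positions are on GRCm38 from GENCODE M21. Mcm8 (chr2:132816141-132844197, plus strand) starts 86 bases from Trmt6, a tRNA methyltransferase subunit gene on the other strand, which had a log2 difference of 0.08 (adjusted p = 0.871). Mcm4 (chr16:15623897-15637400, minus strand) starts 466 bases from Prkdc, which encodes the DNA-dependent protein kinase, with a log2 difference of 0.11 (adjusted p = 0.896). Mcm7 (chr5:138164583-138172422, minus strand) starts 420 bases from Ap4m1 and shares 321 exon bases with it, 7.25% of its own, and Ap4m1 had a log2 difference of 0.09 (adjusted p = 0.913). Cops6, at the other end of Mcm7, shares 64 exon bases with it and had a log2 difference of -0.16 (adjusted p = 0.752). Of the microRNA genes inside Mcm7, Mir25 and Mir93 were listed at 0 in every library. Mir106b was at 0.961 and 0.767 in KO and at 0.155 and 0 in rescue in the exon 4 clone, and at 0.0744 and 0.392 in KO and at 0.280 and 0.102 in rescue in the other clone. Its groups were separate, with KO above rescue, in the exon 4 clone alone, as were those of 11.4% of all genes there. The log2 difference in that clone was 1.25 (unadjusted p = 0.00215, limma adjusted p = 0.412), and over both clones it was 0.66 (adjusted p = 0.504). Mir106b has 82 bases and shares 0 exon bases with Mcm7, so that its few reads and those of Mcm7 introns cannot be told apart. None of the 3 divergent neighbours passed the test, while Mcm8 and Mcm4 did.

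Mcm9 (chr10:53536315-53630439, minus strand) shares 1748 exon bases, or 19.2% of its own, with Asf1a on the opposite strand. Asf1a, a histone chaperone gene, had a log2 difference of 0.00 (adjusted p = 1.00). Whether the counting used strand is not given in the sources used here, so reads from Mcm9 and Asf1a cannot be told apart in the shared exons. Asf1a had a mean of 1.04 in KO and 1.02 in rescue, above the 0.230 and 0.301 of Mcm9. The part of Asf1a reads in the Mcm9 values was not tested. Of the Mcm7 transcript sequence, 24.4% of stretches of 31 bases also occur in the processed pseudogene Gm5487, for which no value was used here, and 5.26% of those of Mcm4 occur in Gm9577. Gm9577 was at 0.836 in KO and 0.366 in rescue (adjusted p = 0.0701). The values of Mcm7 and Mcm4 are uncertain to that extent. Those of Mcm9, and so its contrast with Mcm8, may be uncertain by more than its share of shared bases, because Asf1a was the higher gene.

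The genes whose profile over the 8 replicates was nearest to the mean of the hexamer were Fanca, D030056L22Rik, Tex30, Espl1 and Slc25a10. Nearness was the root mean square difference between centred log2 values, which was 0.160 for Fanca and 0.174 for Slc25a10. By the same measure, Mcm2 and Mcm3 were at 0.150, Mcm4 at 0.192, Mcm10 at 0.236 and Mcm6 at 0.251, while Mcm8 was at 0.410, Mcm7 at 0.452, Mcm5 at 0.535 and Mcm9 at 0.621. Mcm10 was thus nearer to the hexamer mean than 3 of the 6 hexamer members, which themselves form part of that mean. This holds for log2 values with 0.5 added, a scale that understates the change of low genes. The linear ratio of Mcm10 was 8.61, and no other pseudocount was tried for this measure.

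The other genes of the pathway were taken as lists. Over all 16866 tested genes, 1.61% were higher in KO, and 276 genes were higher with the replicate block. Of the genes listed for licensing, the loading of the ring, 8 of 9 were tested and 2 were higher in KO. The median log2 difference of the 8 was 0.21, and 3 were called with the replicate block. These were Cdt1, the loading factor (1.35, adjusted p = 0.00121), and Gmnn, its inhibitor geminin (1.06, adjusted p = 0.00334), and Orc1 (0.63) joined them with the block (adjusted p = 0.0467). Of the genes listed for assembly and firing of the CMG, the active helicase, 6 of 12 were higher, with a median of 0.81 (7 with the block). Cdc45, which completes the CMG, rose by 1.87 (adjusted p = 0.000155), and Gins2 and Gins4, of the GINS complex, by 1.45 and 0.87 (adjusted p = 0.000254 and 0.00164). Gins1 (0.26) and Gins3 (0.60) did not pass.

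Of the genes tied to the MCM proteins by name or partnership, 5 of 6 were tested. Of these, 3 were higher, or 2 with the replicate block, against 1.61% of all tested genes without it. Hrob, which recruits the Mcm8 and Mcm9 complex, was at 1.16 ± 0.22 in KO and 0.0651 ± 0.0264 in rescue (SD, n = 4), a log2 difference of 1.55 (adjusted p = 0.000293). It passed the minimum level only through KO. Mms22l (0.94) and Tonsl (0.47, adjusted p = 0.0669 with the block) were the others, and Mcmbp, which binds MCM subunits, had a log2 difference of 0.03. Among the DREAM and E2F regulators, 4 of 16 tested were higher and Lin37 itself was lower, with a median of 0.16. Foxm1 (2.05), Lin54 (1.24), E2f1 (1.23) and Lin9 (0.72) were the 4, and the repressor E2f4 had a log2 difference of 0.05.

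**Figure D4:**
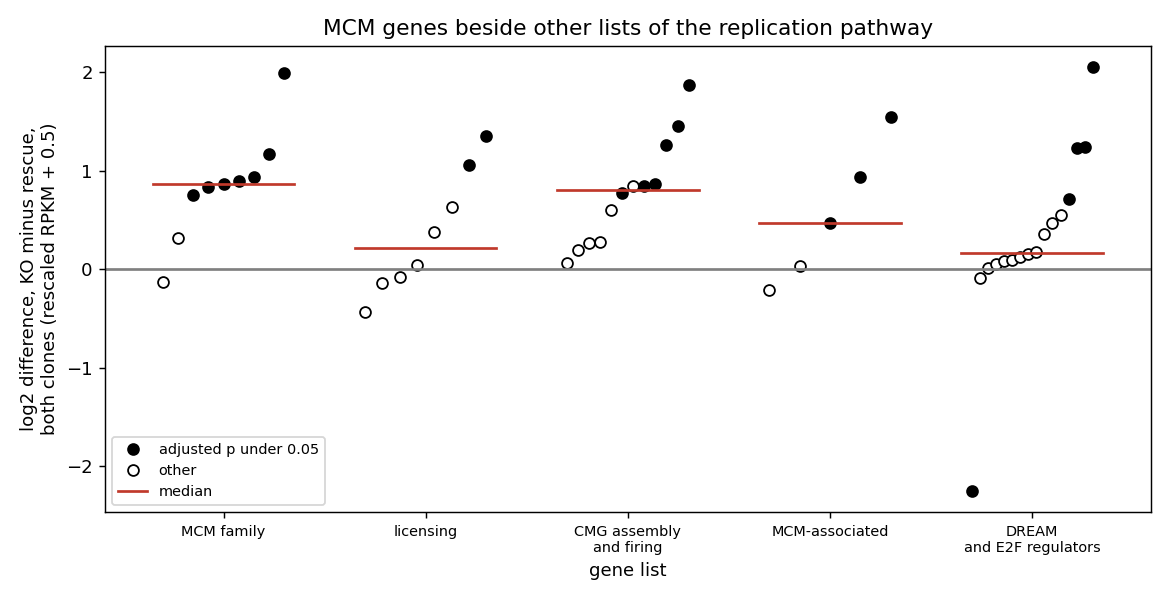
Log2 difference of KO minus rescue over both clones for each tested gene of the MCM family and of 4 other lists, with filled points for an adjusted p under 0.05 and a red line for the median of each list. The medians are 0.86 for the MCM family, 0.21 for licensing, 0.81 for CMG assembly and firing, 0.47 for the MCM-associated genes and 0.16 for the regulators.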

How the data were processed

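RNA was depleted of ribosomal RNA, and libraries were made from 10 samples. The authors clipped adapters with cutadapt, mapped reads to mm10 and counted them per gene, with Picard 1.89 also listed in the submitters' processing notes, and they deposited RPKM values. Strand handling and the library total behind RPKM are not given in the sources used here. The low values were whole multiples of a step for only 23.6% to 34.8% of cases (tolerance 0.02), so that reads were not recovered, depth is unknown, and no counting error is given.

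From these values, library scale was set by the median of ratios across 8523 genes that reached 1 RPKM on average. Technical repeats were merged as means. The test took genes averaging 0.1 RPKM or more and was run with limma 3.58.1 in R 4.3.3 (eBayes with trend, pseudocount 0.5), checked on simulated data. Names came from GENCODE M21, which held 44585 of the 45232 identifiers. Python 3.11.15 was used for the rest. Same-numbered KO and rescue samples deviated together (r across genes was 0.43 for the exon 4 clone, and 0.22 for exon 6), so the numbers were taken as pairs from the labels and a replicate block was fitted as an alternative. The members and lists were chosen with earlier results of these data known. All members are described, and other named genes are list members, neighbours, or the 5 nearest to the hexamer profile. The alternatives were the pseudocount, the minimum level, the scaling, the handling of technical repeats, the block, the trend, the clone covariate and leaving out each replicate.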

Additional observations from a re-analysis of the deposited data

How the results depend on the processing

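Over both clones, 7 members were called and 4 with a minimum mean of 1 RPKM, where only 6 were tested. With that minimum, 93 of 7550 genes were higher in KO. Mcm6 lost its call under most alternatives, with an adjusted p of 0.77 without the clone covariate, and Mcm2 did so without that covariate (0.21) and without KO replicate 2 of the exon 6 clone (0.051). Leaving out 1 replicate gave 5 to 7 calls, where a lone sample left in a group was assumed to vary like the others. In the exon 6 clone, the count of 2 became 0 with no minimum level, where 0 of 36276 genes were higher in KO. As deposited it became 8, where 10040 of 16361 genes were higher. The 0 and the 8 are thus not particular to the MCM genes. It was 1 with a minimum of 1 RPKM (67 of 7496 genes), without the technical repeats (69 of 15755) and with the replicate block (142 of 15301). It was 4 with technical repeats as separate libraries (266 of 15384). The 3 members with a clone difference in level became 1 with no minimum level and 5 with technical repeats as separate libraries, and 1 to 3 when a replicate was left out. Of all 40885 genes tested with no minimum level, 539 were higher in the exon 6 clone and 500 lower. With technical repeats as separate libraries, 1324 of 16549 were higher and 1591 lower. No replicate block could be fitted for this comparison, since the block contains the clone. The replicate block changed no other call of a member. The hexamer minus the other 3 members was 0.13 with a pseudocount of 0.1 and 0.67 as deposited.

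RPKM as deposited moved the median of all genes by 0.64 over both clones. Mcm9 was then 0.26 over both clones, 0.34 for the exon 6 clone alone and 0.17 for exon 4, but -0.38 relative to that median over both clones. Leaving out 1 replicate gave -0.192 to 0.0865 for Mcm9 in the exon 6 clone (above 0 without KO replicate 1 or rescue replicate 2) and -0.00975 to 0.496 for Mcm7 in the exon 4 clone. Interactions that turned were Mcm3 (0.0429) and Mcm8 (0.206) as deposited and Mcm8 (0.169) with a pseudocount of 0.1, and single replicates moved Mcm6 from -0.0172 to 0.530 and Mcm7 from -0.102 to 0.404. Clone levels that turned were Mcm7 (0.542), Mcm8 (0.00901) and Mcm9 (0.229) as deposited, Mcm9 (0.0953) with quantile normalization, and Mcm10 with a pseudocount of 0.1 (-0.0769) and without the technical repeats (-0.0562), while single replicates moved Mcm7 from -0.200 to 0.00199 and Mcm10 from -0.0362 to 0.0537. None of these turned values passed the test, and the cause was not tested.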
